A study of Mus musculus with 13 samples.

Results

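The genes described here are the translation initiation and elongation factors of the mouse, taken from RNAseq of C2C12 cells in which YBX3 was depleted. C2C12 is a mouse skeletal muscle cell line that grows as myoblasts and can be induced to differentiate, and YBX3 is an RNA-binding protein of the Y-box family. A gene was a member when its Ensembl identifier belonged to a protein-coding mouse gene named Eif1 to Eif6 with any ending, Eef1 or Eef2 with any ending, Dhps or Dohh. This gave 89 members among the 55642 genes listed, of which 88 had at least 1 count in any library and 78 passed the filter on low counts. The other 11 members were not tested, and no statement on tested members covers them.

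All 13 libraries were from C2C12 cells reverse transfected with siRNA, either non-targeting (control KD) or directed against YBX3 (YBX3 KD), and were harvested 48 h after transfection. Cells called 0 day stayed in medium with fetal bovine serum as proliferating myoblasts, while cells called 1 day were moved 24 h after transfection to medium with 10% horse serum to induce differentiation. There were 4 libraries of control KD at 0 day (replicates A to D), 2 of control KD at 1 day (C and D), 4 of YBX3 KD at 0 day (A to D) and 3 of YBX3 KD at 1 day (B to D). All groups therefore carried an siRNA, and no library of untransfected cells was analysed here.

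Library totals ran from 33451547 to 71811371 estimated counts, and levels are given as CPM, that is counts relative to the library total after scaling between libraries. Ybx3 itself fell to 14.5% of its control KD level, from 264.5 to 346.6 CPM in the control KD libraries to 28.7 to 71.5 CPM in the YBX3 KD libraries. The myoblast genes Cdh15, Myf5, Vcam1 and Des were present in all 13 libraries, Pax7 was at most 0.179 CPM, and Myod1, a regulator of the muscle lineage, was between 0.601 and 3.32 CPM, with a log2 fold change upon YBX3 KD of 1.11 ± 0.29 (SE, adjusted p = 0.0726 in edgeR). The differentiation regulator Myog was between 0.0523 and 3.46 CPM. Of the genes of other lineages, Epcam and Sox10 had no count in any library, and Ptprc, Pecam1 and Adipoq had at most 5 counts in a library. Replicate D stood apart from A to C in every group, and proliferation genes reached lower levels in it. Mki67 ranged from 100.9 to 425.1 CPM in the 4 replicate D libraries and from 344.3 to 582.1 CPM in the other 9, so the ranges overlapped. Mki67 also averaged 345.9 ± 127.5 CPM (SD, n = 7) in YBX3 KD against 463.2 ± 117.5 CPM (SD, n = 6) in control KD, with an adjusted p of 0.549 in edgeR, and its part in the results below was not tested.

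Protein synthesis starts when eIF2 brings the initiator tRNA to the small ribosomal subunit, eIF1 and eIF1A hold that subunit open for scanning, eIF3 forms a scaffold on it, and the eIF4 factors bind the cap of the mRNA and unwind its leader. eIF5, eIF5B and eIF6 govern the joining of the subunits, eEF1A then delivers each aminoacyl-tRNA, and eEF2 moves the ribosome along. eIF5A helps the ribosome through stretches that join slowly, and it is the only protein known to carry hypusine, an amino acid made on one of its lysines by the enzymes Dhps and Dohh from the polyamine spermidine. Many of these mRNAs are abundant in growing cells, myoblasts included.

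The sequences below belong to the members on which the results turn, and all were read from the GRCm39 genome annotation GENCODE vM39. The first pair shows the codon for the hypusinated lysine, in capitals, with 12 coding bases on each side, in the 2 genes for eIF5A. The codon is number 50 in both genes, and it lies at chr11:69809992-69809994 (minus strand, coding exon) in Eif5a and at chr3:28836348-28836350 (plus strand, coding exon) in Eif5a2.
Eif5a: tcgaagactggcAAGcatggccatgcc
Eif5a2: tccaagactgggAAGcatggtcatgcc
Over the whole coding region the 2 genes were 72.7% identical in aligned bases, and the proteins have 154 and 153 residues. Of the 31-base words of the canonical transcript, 14.9% in Eif5a and 0.158% in Eif5a2 also occurred in other genes, so few reads from Eif5a2 could be assigned elsewhere.

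The next lines show the first 30 coding bases of Eif1ax, the X-linked gene for eIF1A, where they span an intron (chrX:158155396-158159390, plus strand), and of 2 genes named for an eIF1A domain, with capitals where a base differs from Eif1ax. Eif1ad10 stands for all 16 numbered Eif1ad genes, whose first 30 coding bases were identical to each other. These 16 genes lie together on chromosome 12 (chr12:87524918-88290796), and the stretch shown for Eif1ad10 is at chr12:88216841-88216870 on the minus strand. Eif1ad, without a number, lies alone on chromosome 19, with the stretch shown at chr19:5418218-5418247 on the plus strand.
Eif1ax: atgcccaagaataaaggaaaaggaggcaaa
Eif1ad10: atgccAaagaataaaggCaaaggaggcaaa
Eif1ad: atgTcTCagGCCaGCAAGaGGAAGCATGTG
The coding regions of the other 15 numbered copies were 97.0% to 99.5% identical to that of Eif1ad10, and each of the 16 encodes 144 residues, as Eif1ax does. Eif1ad10 was 85.1% identical to Eif1ax and 55.0% identical to Eif1ad. Between 52.1% and 100% of the 31-base words of each numbered copy also occurred in other genes, so how reads were shared out among the copies is uncertain, and they are not independent measurements.

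Upon YBX3 KD, a single member passed the study's threshold of an absolute fold change above 1.3 with an adjusted p under 0.001 over both time points in edgeR. This was Eif5a2, the less abundant gene for eIF5A, which fell to 65.7% of its control KD level. The background was 19 of 16848 tested genes, or 0.113%. The study applied its threshold with DESeq2 and a weighted adjustment of p-values (independent hypothesis weighting). DESeq2 was run here without that weighting and over the 16848 filtered genes, so its counts are not the study's. It passed 188 genes and 5 members, Eif5a2, Eif1ad3, Eif1ad7, Eif1ad10 and Eif1ad16. At an adjusted p under 0.05 with no limit on the fold, 7 of the 78 tested members passed (8.97%, against 2.34% of all tested genes). Eif5a2 and the eIF3 subunit gene Eif3l were lower, and Eif1ad3, Eif1ad6, Eif1ad7, Eif1ad10 and Eif1ad16, all from the chromosome 12 group, were higher. As these copies share reads, they raise the share of members together. Outside the copies, 2 of 69 tested members passed. The replicate letter was taken to pair the samples, an inference from how the libraries deviate together. With the letter as a block, 17 members passed at 0.05 (21.8%, against 9.78% of all tested genes in that fit). Eif5a2 was again the only member past the stricter threshold.

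Eif5a2 lies at chr3:28835361-28852995 on the plus strand. In control KD it was at 26.6, 25.0, 25.97 and 24.4 CPM at 0 day (A to D) and at 28.9 and 28.6 CPM at 1 day (C and D). In YBX3 KD it was at 17.1, 17.6, 16.3 and 17.2 CPM at 0 day (A to D) and at 17.0, 19.8 and 17.4 CPM at 1 day (B to D). Every YBX3 KD library was below every control KD library. Taking the time points together, its log2 fold change was -0.62 ± 0.06 (SE), with an adjusted p of 0.000139 in edgeR's quasi-likelihood test, which gave it rank 9 of all tested genes by p.

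The lower level of Eif5a2 was also called at each time point on its own. At 0 day the log2 fold change was -0.58 ± 0.07 (SE, adjusted p = 0.0050 in edgeR), and at 1 day it was -0.67 ± 0.09 (SE, adjusted p = 0.0324 in edgeR). Neither passed the stricter threshold, which 5 genes did at 0 day (0.0297%) and 0 at 1 day (0.0%). At 0.05, the members passing were 2 at 0 day (0.427% of all genes) and 1 at 1 day (0.0712%), and Eif5a2 was among them at both. The 0 day call was kept whichever single library was left out. The 1 day call was kept without control KD 0 day D or YBX3 KD 1 day C and lost without any 1 of the other 11 libraries, with adjusted p up to 0.230, while the log2 fold change stayed between -0.74 and -0.63. Replicate D, which departed from the others for many members, did not for Eif5a2, and without its 4 libraries the log2 fold change was -0.62 (adjusted p = 0.000478 in edgeR). With the time points together, leaving out any single library kept its log2 fold change between -0.64 and -0.60 and past the stricter threshold.

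The other members of the eIF5A group did not pass the test. Eif5a, the main gene for eIF5A, was at 1234, 1177, 1343 and 655.7 CPM in control KD at 0 day (A to D) and at 1381 and 1010 CPM at 1 day (C and D). In YBX3 KD it was at 942.3, 1093, 1079 and 759.8 CPM at 0 day (A to D) and at 1311, 1018 and 539.8 CPM at 1 day (B to D). Replicate D was the lowest library of each of the 4 groups, and the groups overlapped widely. Its log2 fold change was -0.24 ± 0.21 (SE, adjusted p = 0.631 in edgeR).

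Dhps, which carries out the first step of hypusination, was at 36.0 to 43.4 CPM in control KD and at 33.8 to 41.7 CPM in YBX3 KD, giving a log2 fold change of -0.12 ± 0.07 (SE, adjusted p = 0.479 in edgeR). Dohh, which completes it, was at 47.6 to 70.4 CPM and 46.2 to 66.4 CPM, giving a log2 fold change of -0.13 ± 0.11 (SE, adjusted p = 0.640 in edgeR). Of the 31-base words of Dohh, 66.6% also occurred in another gene, so its level is uncertain. Per kilobase of transcript, Eif5a was between 46.9 and 158.7 times as abundant as Eif5a2 in control KD, the range being that over 3 definitions of transcript length. Eif5a2 was thus the minor of the 2 mRNAs for eIF5A.

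**Figure D1:**
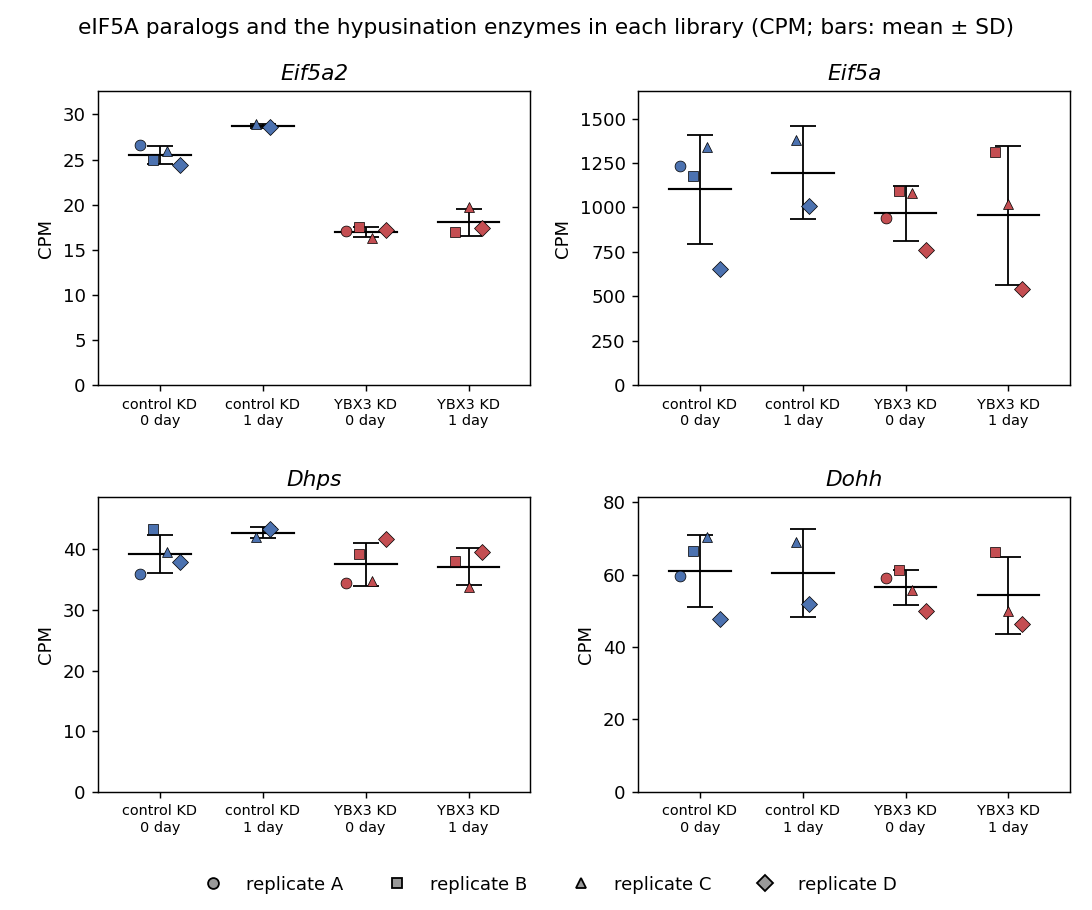
Level in CPM (vertical axes, from 0) of Eif5a2, Eif5a, Dhps and Dohh in each of the 13 libraries, by group along the horizontal axis, with a symbol for each replicate letter and bars for the group mean ± SD. The YBX3 KD libraries of Eif5a2 (16.3 to 19.8 CPM) all lie under the control KD libraries (24.4 to 28.9 CPM), whereas the groups overlap for the other 3 genes and replicate D is the lowest library of every group for Eif5a.

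The 4 tested genes whose log2 CPM followed Eif5a2 most closely over the 13 libraries were Mad2l2, Pygb, Ybx3 and Aph1b, with Pearson correlations from 0.971 to 0.978. This is a description of 13 libraries that share their knockdown groups, and all 4 genes also had negative log2 fold changes upon YBX3 KD, from -2.81 for Ybx3 to -0.49 for Mad2l2.

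Because siRNAs can also act through the seed of their antisense strand (bases 2 to 8), the 3′ UTRs of the members were searched, on the strand of the mRNA, for letters complementary to the seeds of the siRNAs the study lists. Which of those siRNAs went into these libraries is not given in the sources used here. The 3′ UTR of Eif5a2, 4391 bases long in the canonical transcript, held none of the letters that match the 4 siRNAs against YBX3. These letters were CAACTAT for the siRNA numbered 5 in the list, GCTACTA for number 6, GATATGG for number 7, whose listed strands do not pair, and GCAAGTA for number 8. Eif5a2 did hold the letters for 2 of the listed non-targeting siRNAs, TTGTGTG (number 2) and TTTTCTG (number 3), at 2 places each. Those letters occurred in 24.9% and 29.6% of all genes. Of 77 tested members with an annotated 3′ UTR, 15 held letters for at least 1 of the 4 siRNAs against YBX3 (19.5%), against 20.4% of 12925 genes. CAACTAT and GCTACTA each occurred in 3 members (3.90%, against 6.72% and 4.91% of all genes), each of them with a negative log2 fold change. GATATGG occurred in 8 members (10.4%, against 5.97%), of which 5 had a negative one. The letters GCAAGTA occurred in 4 members, Eif3f, Eef2k, Eef2kmt and Eif2s1 (5.19%, against 6.84% of all genes). All 4 had negative log2 fold changes, and none passed the test in the main fit. Most members were lower with or without a match. A negative log2 fold change was found in 12 of the 15 members with letters for any siRNA against YBX3, and in 56 of all 78 tested members. A match describes letters in a window and not a site of action.

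The largest changes in the other direction were in the Eif1ad genes of chromosome 12. All 9 copies that were tested had a positive log2 fold change upon YBX3 KD, and 5 of the 9 passed an adjusted p of 0.05. Summed over the 16 copies, which sets aside how reads were divided among them, the level was 39.1, 55.1, 33.4 and 26.9 CPM in control KD at 0 day (A to D) and 47.5 and 33.8 CPM at 1 day (C and D). In YBX3 KD the sum was 83.2, 91.5, 62.1 and 104.3 CPM at 0 day (A to D) and 73.5, 128.9 and 76.7 CPM at 1 day (B to D). The lowest YBX3 KD library was above the highest control KD library, and the YBX3 KD mean of 88.6 ± 22.3 CPM (SD, n = 7) was 2.26 times the control KD mean of 39.3 ± 10.3 CPM (SD, n = 6). No test was made on the sum.

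Eif1ad7 (chr12:88237410-88241270, minus strand) had the most counts of the 16 copies. It was at 19.8, 30.6, 17.7 and 13.5 CPM in control KD at 0 day (A to D) and at 26.2 and 14.7 CPM at 1 day (C and D). In YBX3 KD it was at 46.0, 53.4, 33.8 and 51.0 CPM at 0 day (A to D) and at 43.3, 71.0 and 42.0 CPM at 1 day (B to D). The groups did not overlap, and the log2 fold change was 1.24 ± 0.22 (SE, adjusted p = 0.0114 in edgeR).

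Eif1ad10 (chr12:88215508-88219642, minus strand) had the smallest p of the copies. It was at 4.63, 5.24, 3.46 and 3.52 CPM in control KD at 0 day (A to D) and at 5.29 and 4.00 CPM at 1 day (C and D). In YBX3 KD it was at 8.58, 10.0, 8.30 and 11.1 CPM at 0 day (A to D) and at 7.89, 13.05 and 10.1 CPM at 1 day (B to D). The groups did not overlap, the log2 fold change was 1.16 ± 0.15 (SE, adjusted p = 0.00224 in edgeR), and at 0 day alone it was 1.17 ± 0.20 (SE, adjusted p = 0.0320 in edgeR). The 0 day call was lost when any 1 of the 8 libraries at 0 day was left out, with adjusted p up to 0.116.

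Eif1ad3 and Eif1ad16 had log2 fold changes of 1.23 ± 0.24 (SE, adjusted p = 0.0200) and 1.38 ± 0.29 (SE, adjusted p = 0.0279), and Eif1ad6 one of 0.80 ± 0.19 (SE, adjusted p = 0.0443), all in edgeR. Eif1ad10 and Eif1ad7 stayed past 0.05 whichever single library was left out. Eif1ad3 lost its call without control KD 0 day A or C, control KD 1 day C or D, or YBX3 KD 0 day A, with adjusted p up to 0.0593. Eif1ad16 lost it without 7 of the 13 libraries and Eif1ad6 without 10 of the 13, with adjusted p up to 0.0736 and 0.0986. Eif1ad4, Eif1ad8, Eif1ad15 and Eif1ad2 had log2 fold changes of 1.64, 0.72, 0.66 and 0.97 that did not pass the test. The 7 untested copies were low, with between 4 counts (Eif1ad13) and 90 counts (Eif1ad18) over all 13 libraries together.

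Groups that did not overlap were counted over all genes as well. Among the tested members, 4 had every YBX3 KD library above every control KD library (5.13%, against 0.95% of all tested genes). These were Eif1ad3, Eif1ad4, Eif1ad7 and Eif1ad10, all copies that share reads and so not independent. In the other direction there were 2 members, Eif5a2 and Eif2b2 (2.56%, against 1.08%). Eif1ad itself was at 30.7 to 71.1 CPM in control KD and 27.7 to 74.9 CPM in YBX3 KD, giving a log2 fold change of -0.09 ± 0.24 (SE, adjusted p = 0.897 in edgeR). The 2 genes for eIF1A proper, Eif1a and Eif1ax, had log2 fold changes of 0.06 and -0.15 and adjusted p-values of 0.795 and 0.582. Per kilobase, Eif1ax was between 11.05 and 12.9 times as abundant as Eif1ad10 in control KD. That ratio is for Eif1ad10 alone and does not hold for the 16 copies together, whose summed level averaged 39.3 CPM in control KD.

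**Figure D2:**
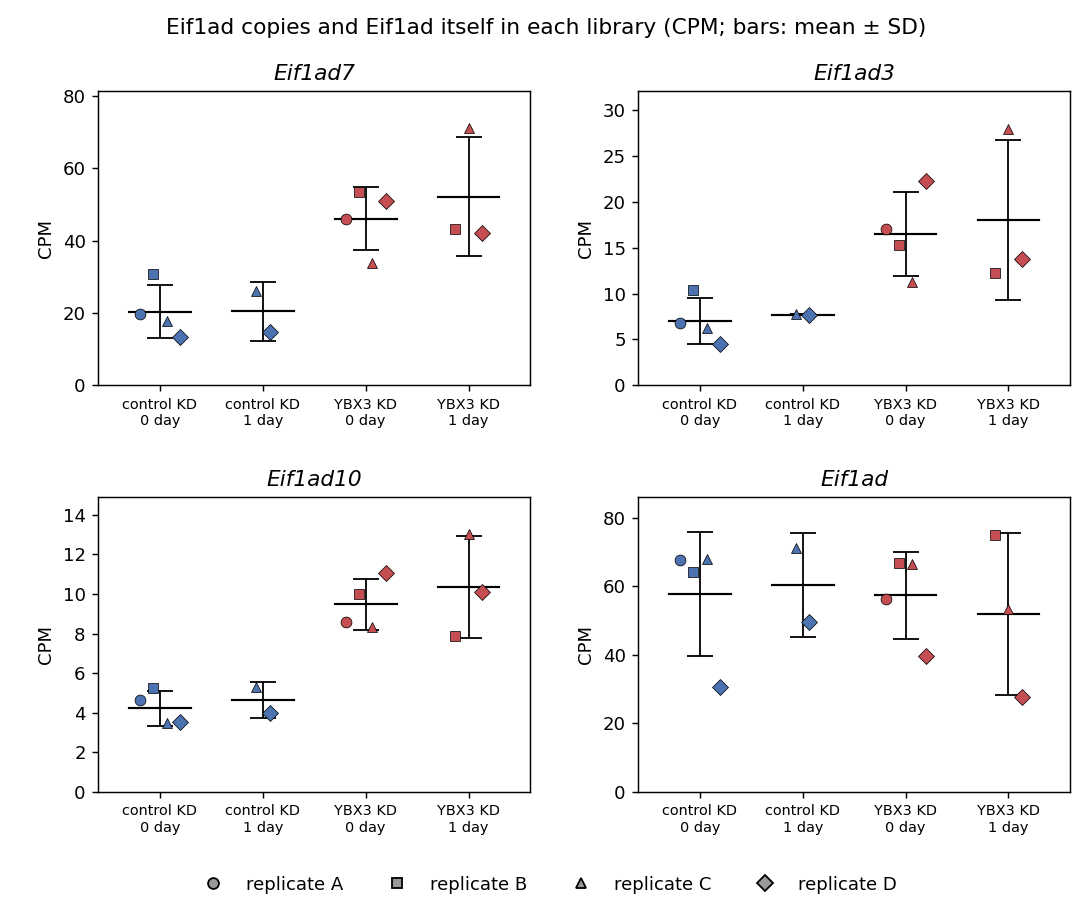
Level in CPM (vertical axes, from 0) of Eif1ad7, Eif1ad3, Eif1ad10 and Eif1ad in each of the 13 libraries, by group along the horizontal axis, with a symbol for each replicate letter and bars for the group mean ± SD. For the 3 numbered copies every YBX3 KD library lies above every control KD library, while Eif1ad on chromosome 19 overlaps between the groups (30.7 to 71.1 CPM in control KD, 27.7 to 74.9 CPM in YBX3 KD).

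The interval of the numbered copies holds 70 other annotated genes, of which 11 were tested. None of the 11 passed an adjusted p of 0.05 upon YBX3 KD, and the smallest adjusted p was 0.0784, for the processed pseudogene Gm46992. Of the 11, 10 had a positive log2 fold change, like the copies, and 1 a negative one, with a median of 0.60, and 5 had an unadjusted p under 0.05. The protein-coding neighbours were Ubl5b at 1.67 ± 0.59 (SE), Gm2042 at 0.30 ± 0.21 (SE), Pramel51 at 0.25 ± 0.23 (SE) and Oog1 at 0.17 ± 0.22 (SE), and Gm46992 was at 2.46 ± 0.66 (SE). These neighbours were low, at no more than 4.09 CPM on average in either arm.

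The numbered copies shared a feature with a control siRNA that the gene list did not use. The antisense strand of number 3 of the 4 non-targeting siRNAs the study lists is shown first, with its seed in capitals, followed by 30 bases of the 3′ UTR of 3 copies, with the letters complementary to that seed in capitals.
Non-targeting siRNA number 3: uCAGAAAAcauguaaacca
Eif1ad7: gtaaatgaggttcctgTTTTCTGaatggag
Eif1ad10: gaaaatgatgttactgTTTTCTGaatggag
Eif1ad15: gaaaatgatgttattgTTTTCTGaatggag
The windows lie at chr12:88237523-88237552 for Eif1ad7, chr12:88215632-88215661 for Eif1ad10 and chr12:88287018-88287047 for Eif1ad15, all on the minus strand, and Eif1ad3 holds the same 30 letters as Eif1ad7. In each of them pairing ran unbroken over 9 bases from base 2, an A stood opposite base 1, and 14 of the 19 bases paired.

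A match of this length, with an A opposite base 1, was found in 8 of the 9 tested copies, the exception being Eif1ad16, whose annotated 3′ UTR is 366 bases long. It was present in 161 of 12925 genes (1.25%) and, outside the copies, in 1 other member, Eif4ebp2. The 153 genes with the match that were not among the copies had a median log2 fold change of 0.01. Of them, 50.3% were higher upon YBX3 KD, against 49.4% of the genes without it. At an adjusted p under 0.05 in edgeR, 4 of them were higher (2.61%), against 1.43% of the genes without the match. The seed alone (TTTTCTG) was held by 26 of 77 members (33.8%) and 29.6% of all genes. The length of match was chosen after the sites had been seen, and whether this siRNA acted on the copies was not tested.

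Outside the chromosome 12 copies, shifts were mostly small and mostly towards lower levels. Of the 69 tested members there, which include elongation factors and Eif5a2, 56 had a negative log2 fold change and 13 a positive one, with a median of -0.13. Over all members tested the split was 56 lower (71.8%) and 22 higher, against 49.9% of all genes lower, and the median of all genes was 0.00. Only Eif5a2 and Eif3l passed the test among the 56. Replicate letter carries part of the spread. In the blocked fit 11 members passed as lower (14.1%, against 4.38% of all tested genes) and 6 as higher (7.69%, against 5.4%). Those 6 were all Eif1ad copies, which share reads. All of these are steady-state mRNA levels in bulk RNA, in which fewer cells of a type and less RNA per cell cannot be told apart.

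**Figure D3:**
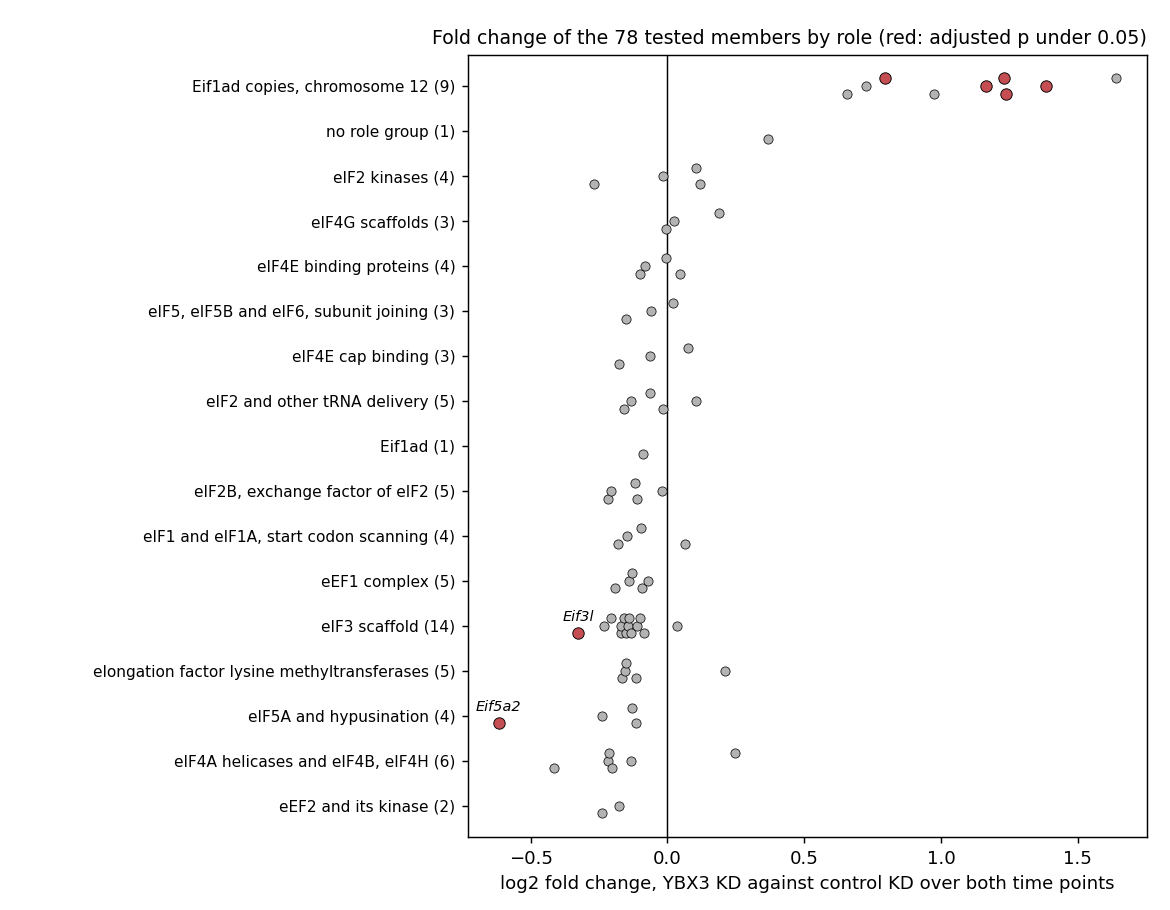
The log2 fold change of YBX3 KD against control KD over both time points (horizontal axis) for the 78 tested members, in rows by role with the number of members in parentheses and red points for an adjusted p under 0.05. The 9 Eif1ad copies lie between 0.66 and 1.64, Eif5a2 stands alone at -0.62, and the 14 eIF3 genes lie between -0.33 and 0.04.

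eIF3 is the largest of the initiation factors and was measured through 14 genes, all of them tested. Of these, 13 had a negative log2 fold change and 1 a positive one (Eif3a, 0.04), with a median of -0.15, and 1 of the 14 passed the test. That gene, Eif3l (chr15:78959372-78978606, plus strand), was at 374.1, 366.8, 398.0 and 329.1 CPM in control KD at 0 day (A to D) and at 402.3 and 351.8 CPM at 1 day (C and D). In YBX3 KD it was at 289.5, 303.9, 311.8 and 264.6 CPM at 0 day (A to D) and at 339.7, 303.1 and 262.7 CPM at 1 day (B to D). Only 1 YBX3 KD library, 1 day B, lay above the lowest control KD library, and within each of the 6 same-letter pairs YBX3 KD was the lower. The log2 fold change was -0.33 ± 0.07 (SE, adjusted p = 0.0375 in edgeR), and it was -0.34 with an adjusted p of 0.00319 with the letter as a block.

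The call for Eif3l was kept without control KD 0 day D, YBX3 KD 1 day B or YBX3 KD 1 day D, and lost without any 1 of the other 10 libraries, with adjusted p up to 0.0981. Eif3c, Eif3k and Eif3d were next within eIF3 by p, with log2 fold changes of -0.21, -0.17 and -0.17 and adjusted p-values of 0.0911, 0.116 and 0.25. The first and the last of these passed 0.05 in the blocked fit, as did Eif3i. Eif3f (-0.23) and Eif3m (-0.15) had adjusted p-values of 0.398 and 0.399. Eif3m shares 52.2% of its 31-base words with a pseudogene.

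The loosely attached subunit eIF3j has 2 genes in the mouse, and the aligned coding bases of Eif3j1 and Eif3j2 were 100% identical. Eif3j1 and Eif3j2 had log2 fold changes of -0.11 ± 0.16 and -0.16 ± 0.19 (SE). As 94.9% of the 31-base words of Eif3j2 also occur in other genes, chiefly Eif3j1, their separate levels are uncertain.

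For eIF2, which carries the initiator tRNA, the alpha subunit gene Eif2s1 was at 95.1 to 182.7 CPM in control KD and 87.4 to 181.4 CPM in YBX3 KD, giving a log2 fold change of -0.06 ± 0.19 (SE, adjusted p = 0.905 in edgeR). The gamma subunit is encoded on both sex chromosomes. Eif2s3x, on the X, was at 323.8 to 488.5 CPM in control KD and 313.3 to 489.6 CPM in YBX3 KD (log2 fold change -0.02 ± 0.12, SE, adjusted p = 0.971), while Eif2s3y, on the Y, had 0 counts in all 13 libraries, which allows at most 3 counts in a library, or 0.0926 CPM in the shallowest. That limit covers counting error only. Eif2d, which can place tRNA without eIF2, was at 38.8 to 44.9 CPM and 41.9 to 46.2 CPM, giving a log2 fold change of 0.11 ± 0.05 (SE, adjusted p = 0.340).

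eIF2B recharges eIF2 with GTP, and all 5 of its genes had negative log2 fold changes, from -0.22 to -0.02, without passing the test. Eif2b2 came closest. It was at 84.6, 87.4, 86.5 and 87.1 CPM in control KD at 0 day (A to D) and at 81.8 and 89.9 CPM at 1 day (C and D). In YBX3 KD it was at 74.9, 76.8, 69.0 and 78.6 CPM at 0 day (A to D) and at 70.0, 68.6 and 79.9 CPM at 1 day (B to D). The groups did not overlap, the log2 fold change was -0.22 ± 0.05 (SE, adjusted p = 0.0590 in edgeR), and the adjusted p was 0.0155 with the letter as a block.

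The 4 kinases that phosphorylate eIF2 went in both directions. Eif2ak1 (HRI, which responds to low haem) was at 62.8 to 81.8 CPM in control KD and 53.0 to 66.3 CPM in YBX3 KD, giving a log2 fold change of -0.27 ± 0.07 (SE, adjusted p = 0.0888 in edgeR, and 0.0169 with the letter as a block). Eif2ak3 (PERK, of the endoplasmic reticulum) had a log2 fold change of 0.12 ± 0.07 (SE, adjusted p = 0.435). Eif2ak4 (GCN2, which senses uncharged tRNA) was the steadiest of them, at 44.2 to 46.5 CPM in control KD and 42.2 to 46.3 CPM in YBX3 KD (log2 fold change -0.02 ± 0.04, SE, adjusted p = 0.885).

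In the cap-binding complex the log2 fold changes of paralogs also differed in sign, but none passed the test in the main fit. Differences between paralogs were not tested. Eif4a1, the main helicase gene, had a log2 fold change of -0.13 ± 0.15 (SE, adjusted p = 0.713), and Eif4a2 one of 0.25 ± 0.09 (SE, adjusted p = 0.198). Eif4a2 was at 211.9 to 307.2 CPM in control KD and 287.2 to 370.3 CPM in YBX3 KD, with the single low value in control KD 1 day D. Per kilobase Eif4a1 was between 3.70 and 6.09 times as abundant as Eif4a2 in control KD, although 69.2% of the 31-base words of Eif4a1 also occur in other genes. Eif4g1, the large scaffold, had a log2 fold change of 0.03 ± 0.14 (SE, adjusted p = 0.952), Eif4g2 one of -0.01 ± 0.09 (SE, adjusted p = 0.98) and Eif4g3 one of 0.19 ± 0.06 (SE, adjusted p = 0.125).

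Eif4e, which binds the cap, was at 125.6 to 176.4 CPM in control KD and 106.5 to 170.6 CPM in YBX3 KD, giving a log2 fold change of -0.18 ± 0.11 (SE, adjusted p = 0.489 in edgeR, and 0.0322 with the letter as a block). Its binding proteins, which block assembly of the complex when mTORC1 is inactive, showed log2 fold changes of -0.08 ± 0.09 (Eif4ebp1) and 0.04 ± 0.05 (Eif4ebp2), SE in both cases. Eif4enif1, which carries eIF4E into the nucleus, had one of -0.10 ± 0.08 (SE, adjusted p = 0.593). Among the factors of scanning and subunit joining, Eif1b (-0.18 ± 0.07, SE, adjusted p = 0.242) and Eif6 (-0.15 ± 0.07, SE, adjusted p = 0.311) had the smallest p-values. Eif1b passed in the blocked fit, at an adjusted p of 0.0250.

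Eef1a1 and Eef2, the elongation factors that bring aminoacyl-tRNA to the ribosome and move it along the mRNA, had the highest CPM per kilobase of the members in control KD, whichever of the 3 lengths was used. Per kilobase, Eef1a1 was between 4.86 and 8.71 times as abundant as Eef1g, a subunit of its exchange factor, in control KD, and Eef1a1 and Eef2 together took between 1.02% and 1.51% of all counts in a library. All 5 tested genes grouped with the eEF1 complex had negative log2 fold changes, none past the test. Eef1a1 was at 6854 to 9687 CPM in control KD and 6357 to 8575 CPM in YBX3 KD (log2 fold change -0.14 ± 0.09, SE, adjusted p = 0.50), and 72.3% of its 31-base words also occur in other genes. Eef1g had the smallest p of the complex, giving a log2 fold change of -0.19 ± 0.08 (SE, adjusted p = 0.227).

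Eef1a2, which replaces Eef1a1 in mature muscle fibres, had 6 counts over all 13 libraries and at most 1 in any. Eef2 was at 3938 to 5865 CPM in control KD and 3457 to 4915 CPM in YBX3 KD (log2 fold change -0.18 ± 0.11, SE, adjusted p = 0.458). Eef2k, whose kinase inactivates eEF2, was at 41.3 to 56.5 CPM and 36.4 to 46.6 CPM, giving a log2 fold change of -0.24 ± 0.08 (SE, adjusted p = 0.168 in edgeR, and 0.0325 with the letter as a block). Of the methyltransferases that modify eEF1A and eEF2, Eef2kmt had the smallest p, giving a log2 fold change of -0.16 ± 0.07 (SE, adjusted p = 0.335). Eef1ece2, a read-through of neighbouring genes, shares 99.2% of its 31-base words with them and was at 0 in 8 of the 13 libraries, so its log2 fold change of 0.37 ± 1.49 (SE) cannot be read as a direction.

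Lists of genes that work beside the members were counted in the same comparison. None of the 11 genes of polyamine synthesis and turnover passed an adjusted p of 0.05, nor any of the 7 genes that make diphthamide on eEF2, of which all 7 had a negative log2 fold change with a median of -0.08. No gene passed either among 10 poly(A) and cap partners, 4 genes of the eIF2 phosphatase and stress response, and 8 core genes of mTORC1. Of 9 genes of termination and recycling, 1 passed, Mcts1, which works with Denr in recycling, which averaged 18.0 ± 1.87 CPM over the 6 control KD libraries and 23.1 ± 1.77 CPM over the 7 YBX3 KD libraries, SD in each case (log2 fold change 0.36 ± 0.08, SE, adjusted p = 0.0284 in edgeR).

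The design also asks whether the effect of YBX3 KD differed between the time points, and whether the members changed with time itself. For the difference of the effect, 0 members passed an adjusted p of 0.05 in edgeR (0.0% of all genes) and 0 of 78 had an unadjusted p under 0.05, against 2.64% of all genes. The smallest p was that of Eif3f (log2 difference 0.42 ± 0.23, SE, adjusted p = 1.0 in edgeR). DESeq2 and limma-voom called 0 members in this comparison as well.

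From 0 to 1 day in control KD, 0 members passed an adjusted p of 0.05 in edgeR (0.0% of all genes), and 0 had an unadjusted p under 0.05, against 1.44% of all genes. DESeq2 and limma-voom also called 0 members, at either time step. The members with the smallest p were Eif5a2 (log2 difference 0.17 ± 0.09, SE), Eif5b (0.10 ± 0.08, SE) and Dhps (0.12 ± 0.11, SE) among those higher at 1 day, and Eif4g3 (-0.13 ± 0.09, SE) and Eif4a2 (-0.16 ± 0.14, SE) among those lower, beside Eef1ece2. This step rests on 2 libraries at 1 day. The differentiation genes Myog, Mymk, Myh3, Acta1 and Tnnt3 were on average not higher at 1 day in control KD. Acta1 averaged 6.88 CPM at 0 day and 2.62 CPM at 1 day, and Tnnt3 7.46 and 5.40 CPM. In YBX3 KD, Mymk was lower at 1 day and the others were higher on average. The control KD step therefore came without a rise in these differentiation genes.

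In YBX3 KD, 0 members passed between 0 and 1 day (0.0% of all genes), and 3 had an unadjusted p under 0.05 in edgeR (3.85%, against 4.28% of all genes). These were the eIF3 genes Eif3e, Eif3f and Eif3k, with log2 differences of 0.24 ± 0.09, 0.37 ± 0.15 and 0.16 ± 0.07 (SE), each with an adjusted p of 0.988. On the lower side Eif5b, Eif4g1 and Eef1akmt3 had the smallest p, with log2 differences of -0.07, -0.16 and -0.20.

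A further pattern among the members followed the replicate letter. Replicate D was the lowest library of its group in all 4 groups for 34 of the 78 tested members (43.6%), against 21.3% of all tested genes. It was the highest in all 4 for 4 members (5.13%), against 21.9%, and these were Eif3h, Eif2ak3, Eef2k and Eif2d. Leaving out Eif4a3l2, which was also at -0.94 but at no more than 22 counts in a library, the largest deficits were in Eef1e1, a scaffold protein of the tRNA synthetase complex, with a mean log2 ratio of -0.94 between replicate D and the mean of the other libraries of its group, Eif1ad (-0.88), Eif5a (-0.74) and Eif2s1 (-0.70).

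Eef1e1 shows the pattern. It was at 33.3, 31.9, 35.7 and 16.7 CPM in control KD at 0 day (A to D), at 33.8 and 20.5 CPM at 1 day (C and D), at 26.9, 29.9, 32.7 and 18.3 CPM in YBX3 KD at 0 day (A to D) and at 40.2, 25.9 and 13.1 CPM at 1 day (B to D). In the other direction, Eif4b was at 1441 CPM in control KD 0 day D against 811.5 to 819.8 CPM in A to C, and at 1196 CPM in YBX3 KD 1 day D against 878.7 and 802.2 CPM in B and C. In YBX3 KD 0 day D, Eif4b was at 739.0 CPM, against 738.9 to 798.8 CPM in A to C. Mki67 in the 4 replicate D libraries ran from 100.9 to 425.1 CPM, a range that overlaps the 344.3 to 582.1 CPM of the other 9. What set replicate D apart was not tested.

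**Figure D4:**
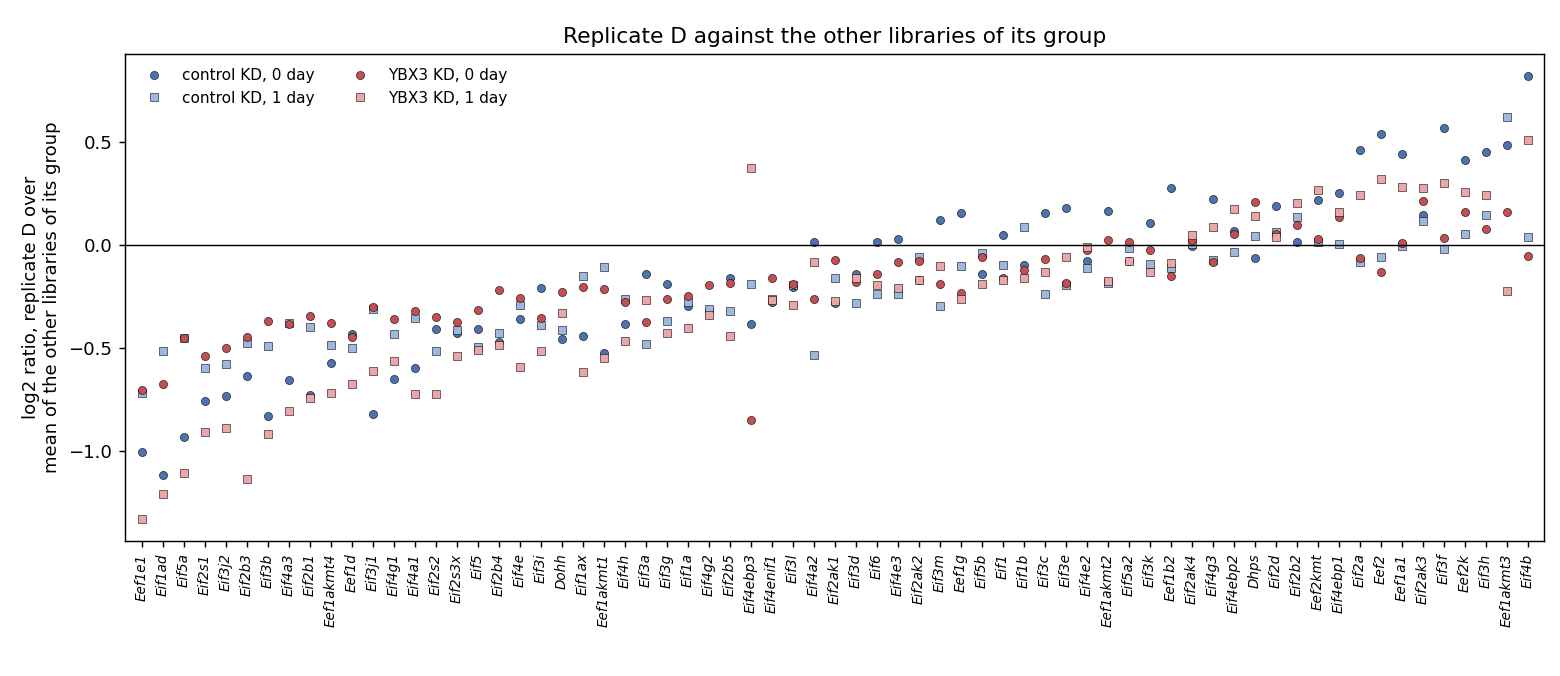
The log2 ratio of replicate D to the mean of the other libraries of its group (vertical axis), for 67 tested members ordered by the mean of the 4 ratios (horizontal axis), with a symbol for each group; the numbered Eif1ad, Eif4a3l2 and Eef1ece2 are left out for their shared reads. Eef1e1, Eif1ad and Eif5a lie lowest with all 4 symbols under 0, Eif5a2 lies near 0, and Eif4b is high in control KD at 0 day and YBX3 KD at 1 day.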

How the data were processed

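RNA sequencing libraries (stranded mRNA kit) were made from 13 samples of C2C12 cells. The authors deposited estimated counts per gene, rounded to whole numbers. The submitters' processing notes name Salmon and the GRCm39 genome, with no versions; the annotation was Gencode M30. Of the columns in the table, 0 were left unused.

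Genes were named through GENCODE vM39. Groups came from the labels. Replicates are given by the letter in the labels' descriptions, since the number in the titles disagrees with it at 1 day. The deviations of same-letter libraries from their group means correlated above 0.1 in 16 of 16 pairs (0.117 to 0.730), against 11 of 46 pairs with other letters and 8 of 16 pairs sharing a title number, so letters were taken to pair the samples. The titles call the libraries biological replicates, and no source used here says whether they were separate cultures, so p-values measure the spread between these samples, which may be technical. No 2 libraries of a group agreed within sampling noise (chi-square per degree of freedom of 18.0 or more in 16 pairs).

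The main test was edgeR's quasi-likelihood test (edgeR 4.0.16, R 4.3.3) with TMM scaling, filterByExpr and Benjamini-Hochberg adjustment over 16848 genes. The comparison over both time points came from a fit with knockdown and day as terms, which takes the effect as equal at both. The comparisons within and between time points came from a separate fit of the 4 groups. The test over both time points was tried on simulated data. Alternatives were DESeq2 1.42.0, limma 3.58.1, other size factors, no filter, a replicate block by letter or title number, and leaving out libraries. Levels per kilobase used the longest coding transcript, the exon union or, added after seeing the data, the canonical transcript. CPM divides counts by the scaled library total. The upper limit given for a gene without counts covers counting error only. The SD and SE values also include the spread between libraries.

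The members and lists were chosen with earlier results of these data known. Named members were those past either threshold, the smallest p in each role, the 3 smallest p-values in each direction of each time step, and 25 fixed for their role. Others named, such as Eif3c, Eif4b and Eef1e1, were chosen after their values were seen. Of the 5 genes nearest in pattern to Eif5a2 that the rule takes, 1 is not reported here.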

Additional observations from a re-analysis of the deposited data

Results flagged for a closer look

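In the 2 groups with 4 libraries, the named members with enough counts gave 84 sets of 4 values, and 9 of these held a library far from the other 3. Chance alone would mark about 1 set in 20. Of the 9, 8 were in replicate D of control KD at 0 day, which the report describes as standing apart, and what set it apart was not tested.

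Above the other 3 libraries of control KD at 0 day, replicate D had 5865 CPM of Eef2 (others 3938 to 4172 CPM), 30.1 CPM of Eif2ak3 (others 26.9 to 27.4 CPM) and 44.9 CPM of Eif2d (others 38.8 to 39.8 CPM). Below them, it had 30.7 CPM of Eif1ad (others 64.3 to 68.1 CPM), 323.8 CPM of Eif2s3x (others 422.4 to 442.5 CPM) and 627.8 CPM of the helicase gene Eif4a1 (others 925.4 to 980.0 CPM). The cap-binding gene Eif4e was at 125.6 CPM (others 157.4 to 163.4 CPM) and Eif5b, which joins the subunits, at 158.1 CPM (others 173.0 to 175.8 CPM). The remaining set was Eef1ece2 in YBX3 KD at 0 day, at 0.446 CPM in replicate C and 0 in the other 3, a read-through gene whose words are nearly all shared with its neighbours.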

How the results depend on the processing

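Over both time points, 1 member passed the stricter threshold in the main fit, 5 with DESeq2, 3 with limma-voom and 0 with a replicate block by title number, and 1 in every other setting tried, the block by letter and each left-out library included. At 0 day the 0 members became 2 with DESeq2 and 1 with limma-voom, and at 1 day 1 with DESeq2. At an adjusted p of 0.05 over both time points, 7 members became 13 with DESeq2, 24 with limma-voom, 17 with the replicate block by letter and 14 without all libraries of replicate D, and between 3 and 10 when single libraries were left out: 3 or 4 without control KD 0 day A, B or C, control KD 1 day C or D, or YBX3 KD 0 day A or B, and 10 without control KD 0 day D. Over all genes that count was 394 in the main fit, 1179 with DESeq2, 3088 with limma-voom, 1647 with the block by letter, 180 with no filter and 2167 without replicate D. Neither time step nor the difference between time points gave a member past the stricter threshold in any setting. Small log2 fold changes turned sign. Eef1ece2 (0.37) was at -1.51 with limma-voom, -0.70 with the block by title number and -0.36 without replicate D, and between -0.84 and 1.87 with single libraries left out. Eif4g1 (0.025) was at -0.031 with limma-voom and -0.0067 without replicate D. Eif2s3x and Eif4g2 were at 0.0018 and 0.0030 with the block by title number. With single libraries left out, Eif4g1 ranged from -0.064 to 0.11, Eif2s3x from -0.076 to 0.053, Eif4g2 from -0.053 to 0.042, Eif1ad from -0.22 to 0.019 and Eif2s1 from -0.16 to 0.036. The cause of these differences was not tested. Per kilobase, Eif4e2 was between 0.341 and 1.99 times Eif4e over the 3 lengths, so their order is not settled. Reads shared between near-identical copies limit the Eif1ad genes and Eif3j2, and low counts limit several Eif1ad copies.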
